A study of Arabidopsis thaliana with 6 samples.

Results

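Seedlings of GRF9-IOE, a transgenic Arabidopsis line in which the growth-regulating factor GRF9 is switched on by estradiol (EST), were compared at 4 h with seedlings at 3 h of treatment. The comparison used 4 of the 6 Affymetrix ATH1 arrays of the series, chosen by their labels: EST seedlings at 4 h, mock seedlings at 4 h, EST seedlings at 3 h and mock seedlings at 3 h, with 1 array for each. All 4 came from 2-week-old plants grown on MS plates, treated with 10 µM estradiol (EST) or with ethanol, the solvent, alone (mock), and mock plants carry the same transgene. The remaining arrays, of detached mature leaves at 6 h, serve here only for a few side values. With 1 array per condition a difference between 2 arrays has no replicate and no error. Time of treatment and anything else that set the harvests apart, such as the hour of the day or the plates, cannot be told apart.

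For each gene the differences EST 4 h minus EST 3 h and mock 4 h minus mock 3 h were taken on the log2 scale, and they share no array. A gene was counted as moving the same way when both differences were at least 0.7 in size with the same sign, a 1.62-fold change in signal, and as moving in mock only when the mock difference reached 0.7 and the EST difference did not. Of 13355 genes with an annotated probe set, 42 moved the same way and 308 moved in mock only. Among the 42, 23 genes were higher at 4 h in both treatments, 0.172% of all genes, and 19 were lower in both, 0.142%. Among the 308, 198 were higher at 4 h in mock only, 1.48%, and 110 were lower in mock only, 0.824%. In opposite directions 13 genes passed 0.7, of which 8 were lower in EST and higher in mock, 0.0599%, and 5 were higher in EST and lower in mock, 0.0374%. Leaving out any 1 array, with the remaining array of that time used for both treatments, gave 54 to 126 genes higher and 27 to 101 lower in both. Both counts were largest without the EST array of 3 h. The 2 differences then share an array and 1 of them crosses treatments, so these counts are not comparable with the 23 and 19.

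Seedlings hold leaf, stem and root tissue, and whole seedlings follow the day, with clock-controlled genes and photosynthesis genes shifting over hours of light. Estradiol switches on the transgene through a chimeric activator, and ethanol treatment controls for the solvent and the handling. As markers, RCA, which activates Rubisco, had a log2 signal of 13.64 in EST and 13.52 in mock at 4 h, against 13.44 in EST and 13.67 in mock at 3 h. The root-abundant β-glucosidase gene PYK10 had 12.06 in EST and 12.07 in mock at 4 h, against 12.27 in EST and 12.08 in mock at 3 h. Both marker signals differed between the times by less than 0.7 in each treatment. Of the 5 genes on the shoot apex list 0 were measured. In whole seedlings, fewer cells of a type and less RNA per cell cannot be told apart.

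Most genes past the threshold in mock were not past it in EST. In EST, 184 genes were at least 0.7 higher at 4 h, 1.38%, and 118 were lower, 0.884%, while in mock 229 were higher, 1.71%, and 134 were lower, 1.0%. Of the 229 genes higher in mock, 23 were also higher in EST, 10% of them, and 8 were lower in EST, 3.49%. Of the 134 lower in mock, 19 were also lower in EST, 14.2%, and 5 were higher, 3.73%. Across the 13355 genes the Pearson correlation of the mock with the EST difference was 0.19, a description over genes of the same 4 arrays. Over the 5216 genes of mean seedling signal 6 or more it was 0.22.

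**Figure D1:**
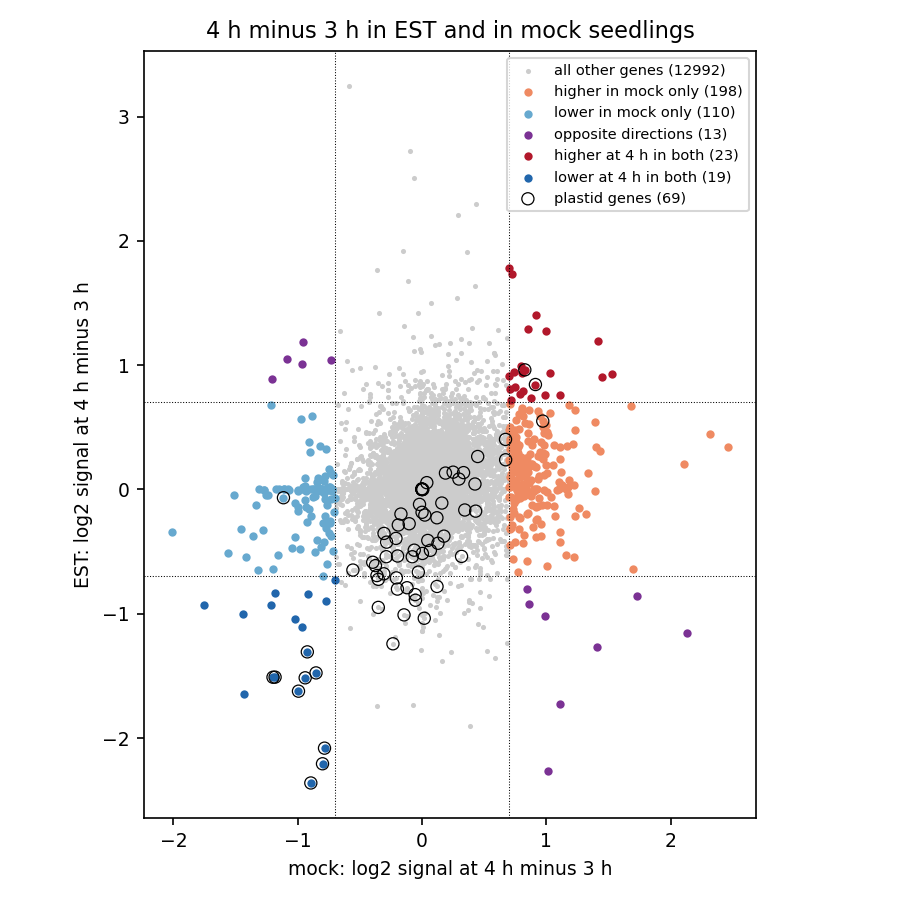
Each point is a gene, with the log2 difference of 4 h minus 3 h in mock on the horizontal axis and in EST on the vertical axis; dotted lines mark 0.7 in either direction, and open circles mark the 69 plastid genes. The 23 genes higher in both and the 19 lower in both lie in the upper right and lower left corners, and most plastid genes lie below 0 on the EST axis.

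A fit of time over the 4 arrays by limma, with terms for treatment and time, left 1 residual degree of freedom. It called 0 genes at a Benjamini-Hochberg adjusted p of 0.05, the smallest adjusted p being 0.322. At an unadjusted p of 0.05 it gave 667 genes higher at 4 h, 4.99%, and 302 lower, 2.26%. With 1 array left out and no treatment term, limma called 583 genes without EST at 3 h, 108 without mock at 3 h and 0 without either 4 h array. In these fits the time with 1 array is assumed to vary like the other time, whose 2 arrays give the whole spread. The 10 smallest p-values of the fit over 4 arrays belonged to genes whose 2 differences were almost equal rather than large. The first was AT5G49530, at 0.72 in EST and 0.72 in mock. The others were CPI1, a cyclopropyl isomerase of sterol synthesis at 0.38 in both, VPS2.2 at 0.36 in both, LHW, a bHLH factor of vascular development at 0.36 in EST and 0.37 in mock, AT1G78930, AT3G15351, AT4G38890, AT1G03100, AT1G44960 and AT5G01260. The counts past 0.7 therefore describe these arrays and carry no test.

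How values are centred mattered for the direction of the counts. The median signal over all probe sets was 0.13 higher on the mock array of 4 h than on that of 3 h. It was 0.07 higher on the EST array of 4 h than on that of 3 h, whereas the median difference over genes was 0 in both treatments. That median of 0 hides a lean, with 3060 genes above 0 in both treatments and 1580 below 0 in both. With every array centred on its median, 8 genes were higher and 26 lower in both, a split of 23.5% higher, against 54.8% with the deposited values (23 and 19). The 8 were AT2G37420, AT5G28630, AT5G01870, CXE18, COR27, AT4G26660, AT4G15390 and rbcL. For genes moving in mock only the split was 37% higher after centring, against 64.3% with the deposited values. Quantile normalization gave 28.6% and 50.7% higher. The mock differences of genes that moved in mock only, and both differences of the other genes counted, kept their sign under either scaling. All of these were at least 0.7 in size by the rule, while centring moved a difference by only 0.13 or 0.07. Their sign could therefore not change under centring, and that it was kept is no result.

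**Figure D2:**
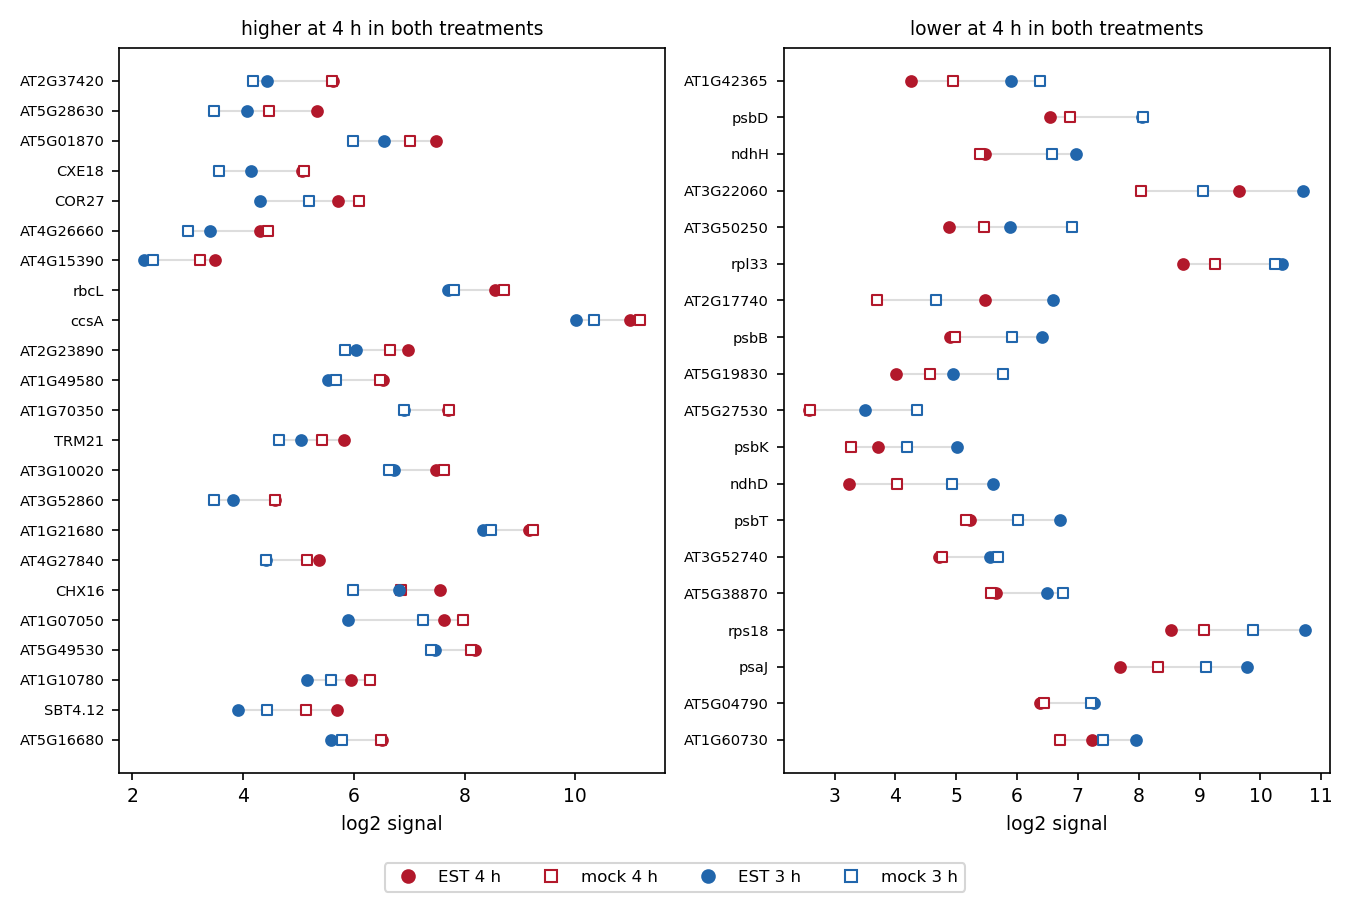
Log2 signal of each gene that moved the same way in both treatments, with a row per gene and a symbol per array (filled circles EST, open squares mock, red 4 h, blue 3 h). In the left panel all 23 genes have both 4 h arrays above both 3 h arrays; in the right panel 17 of the 19 have both 4 h arrays below both 3 h arrays.

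Among the genes higher at 4 h in both treatments, 7 have a name beyond their locus code. They encode a carboxyesterase (CXE18), a cold-regulated protein (COR27), a subtilase (SBT4.12), a TON1 recruiting motif protein (TRM21), a cation/H+ exchanger (CHX16) and the plastid products of rbcL and ccsA. The 2 times did not overlap for any of the 23 genes. The rule fixes the order within each treatment and so favours this, which makes it no result. Over all genes 2134 (16%) had both 4 h arrays above both 3 h arrays by any margin. For 12 of the 23 all 4 pairings of a 4 h with a 3 h array differed by at least 0.7. Over all 13355 genes the number was also 12, since any such gene meets the rule. The differences were modest, with a median of 0.93 in EST and 0.83 in mock, and the largest were 1.78 in EST and 1.53 in mock.

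Ranked by the smaller of the EST and mock differences, the first gene was AT2G37420, which the annotation names only by code. Its log2 signal was 5.62 in EST and 5.60 in mock at 4 h, against 4.42 in EST and 4.18 in mock at 3 h. The 2 arrays of each time lay within 0.24 of each other, and the differences were 1.19 in EST and 1.42 in mock. It was the only one of the 23 genes that stayed in the count at a threshold of 1. Its signal in detached leaves was 2.76 in EST and 2.15 in mock, near the lowest value of the arrays.

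CXE18, a carboxyesterase, had 5.06 in EST and 5.10 in mock at 4 h, against 4.14 in EST and 3.57 in mock at 3 h. Its differences were 0.93 in EST and 1.53 in mock, 1.90-fold and 2.89-fold. Its relative CXE16 lay just under the threshold in mock, at 0.789 in EST and 0.699 in mock. The third carboxyesterase measured, CXE20, stayed near the lowest value of the arrays at 2.16 on all 4.

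COR27 is a cold-regulated gene that also follows the circadian clock, with its product repressing evening-phased clock genes. It had 5.71 in EST and 6.10 in mock at 4 h, against 4.31 in EST and 5.18 in mock at 3 h. The differences were 1.40 in EST and 0.92 in mock. Of the 39 genes of the clock list 2 were measured, and neither moved the same way by 0.7. GIGANTEA (GI), an evening-phased clock gene, was close to it, with 8.05 in EST and 8.23 in mock at 4 h, against 7.47 in EST and 7.56 in mock at 3 h, differences of 0.58 in EST and 0.66 in mock. CCL differed by 0.74 in EST and −0.02 in mock.

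The cold and abscisic acid list had 3 of 26 genes measured, and none of them moved the same way. COR47, a dehydrin, differed by 0.88 in EST and 0.38 in mock. COR15B differed by 0.34 in EST and 0.17 in mock, and COR15A by −0.03 in EST and −0.24 in mock.

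The remaining named nuclear genes were SBT4.12, TRM21 and CHX16. SBT4.12, a subtilase, had 5.69 in EST and 5.13 in mock at 4 h, against 3.91 in EST and 4.43 in mock at 3 h, so that its difference of 1.78 in EST was the largest of the group while that in mock, 0.702, was just inside the threshold. TRM21, of a family that recruits microtubule-organising proteins, had 5.82 in EST and 5.43 in mock at 4 h, against 5.05 in EST and 4.64 in mock at 3 h. CHX16, of a family of cation/H+ exchangers, had 7.56 in EST and 6.86 in mock at 4 h, against 6.82 in EST and 5.98 in mock at 3 h. For CHX16 mock at 4 h was barely above EST at 3 h. All 3 genes dropped out of the count under quantile normalization and under median centring.

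Of the genes named only by code, AT5G28630 had 5.34 in EST and 4.46 in mock at 4 h, against 4.06 in EST and 3.47 in mock at 3 h. AT5G01870 had 7.48 in EST and 7.01 in mock at 4 h, against 6.54 in EST and 5.98 in mock at 3 h. AT4G26660 had 4.31 in EST and 4.45 in mock at 4 h, against 3.41 in EST and 3.00 in mock at 3 h. All 3 were lowest on the mock array of 3 h. AT1G07050 had 7.62 in EST and 7.98 in mock at 4 h, against 5.89 in EST and 7.25 in mock at 3 h, and was lowest on the EST array of 3 h. AT4G15390, AT2G23890, AT1G49580 and AT1G70350 were at 0.85, 0.81, 0.80 and 0.79 by the smaller of their differences. The other members named by code ran in that measure from 0.76 for AT3G10020 and AT3G52860 to 0.70 for AT5G16680. Just outside the threshold was AT1G03260, at 0.687 in EST and 0.703 in mock.

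The plastid genome supplied 9 of the 19 genes that were lower at 4 h in both treatments and 2 of the 23 that were higher, with 69 plastid genes among the 13355 measured. This genome encodes part of the photosynthetic machinery and of the plastid's own ribosome, and its genes are often transcribed together and then cut and edited. The 9 were psbD, psbB, psbT and psbK of photosystem II, psaJ of photosystem I, ndhH and ndhD of the NADH dehydrogenase-like complex, and rpl33 and rps18 of the ribosome. They include the run of neighbours psaJ, rpl33 and rps18 and the neighbours psbB and psbT.

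psbD, which encodes the D2 reaction centre protein, had 6.55 in EST and 6.88 in mock at 4 h, against 8.06 in EST and 8.08 in mock at 3 h. The arrays of each time lay close together, and the differences were −1.51 in EST and −1.20 in mock. ndhH had 5.47 in EST and 5.40 in mock at 4 h, against 6.98 in EST and 6.58 in mock at 3 h, differences of −1.51 in EST and −1.18 in mock. In both genes the 4 h arrays were well below the 3 h arrays. psbB, for the inner antenna protein CP47, had 4.89 in EST and 4.97 in mock at 4 h, against 6.41 in EST and 5.91 in mock at 3 h. Its neighbour psbT had 5.22 in EST and 5.16 in mock at 4 h, against 6.70 in EST and 6.02 in mock at 3 h. Both of the neighbours were close between EST and mock at 4 h and spread further at 3 h.

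Along psaJ, rpl33 and rps18 the EST difference was larger in size than the mock difference. psaJ had 7.70 in EST and 8.32 in mock at 4 h, against 9.78 in EST and 9.11 in mock at 3 h, differences of −2.08 in EST and −0.78 in mock. rpl33 had 8.72 in EST and 9.25 in mock at 4 h, against 10.35 in EST and 10.24 in mock at 3 h, differences of −1.62 in EST and −0.99 in mock. rps18 had 8.52 in EST and 9.08 in mock at 4 h, against 10.73 in EST and 9.88 in mock at 3 h, differences of −2.21 in EST and −0.80 in mock. In each of the 3 the EST array was the lower of the 2 at 4 h and the higher of the 2 at 3 h. The next gene along, rpl20, differed by −1.04 in EST and 0.02 in mock.

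ndhD had the largest EST difference of the group, −2.36, with −0.89 in mock. Its signals were 3.24 in EST and 4.03 in mock at 4 h, against 5.60 in EST and 4.93 in mock at 3 h. psbK, a small subunit of photosystem II, had 3.71 in EST and 3.27 in mock at 4 h, against 5.02 in EST and 4.2 in mock at 3 h.

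The 2 plastid genes that were higher in both were rbcL, which stayed in the count under both scalings, and ccsA, which dropped out under median centring. rbcL, for the large subunit of Rubisco, had 8.55 in EST and 8.72 in mock at 4 h, against 7.70 in EST and 7.81 in mock at 3 h, differences of 0.84 in EST and 0.91 in mock. ccsA, for a protein of cytochrome c biogenesis, had 10.98 in EST and 11.17 in mock at 4 h, against 10.02 in EST and 10.34 in mock at 3 h. In the plastid genome ccsA lies beside ndhD, which differed in the other direction, and beside rpl32, at −1.24 in EST and −0.23 in mock.

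**Figure D3:**
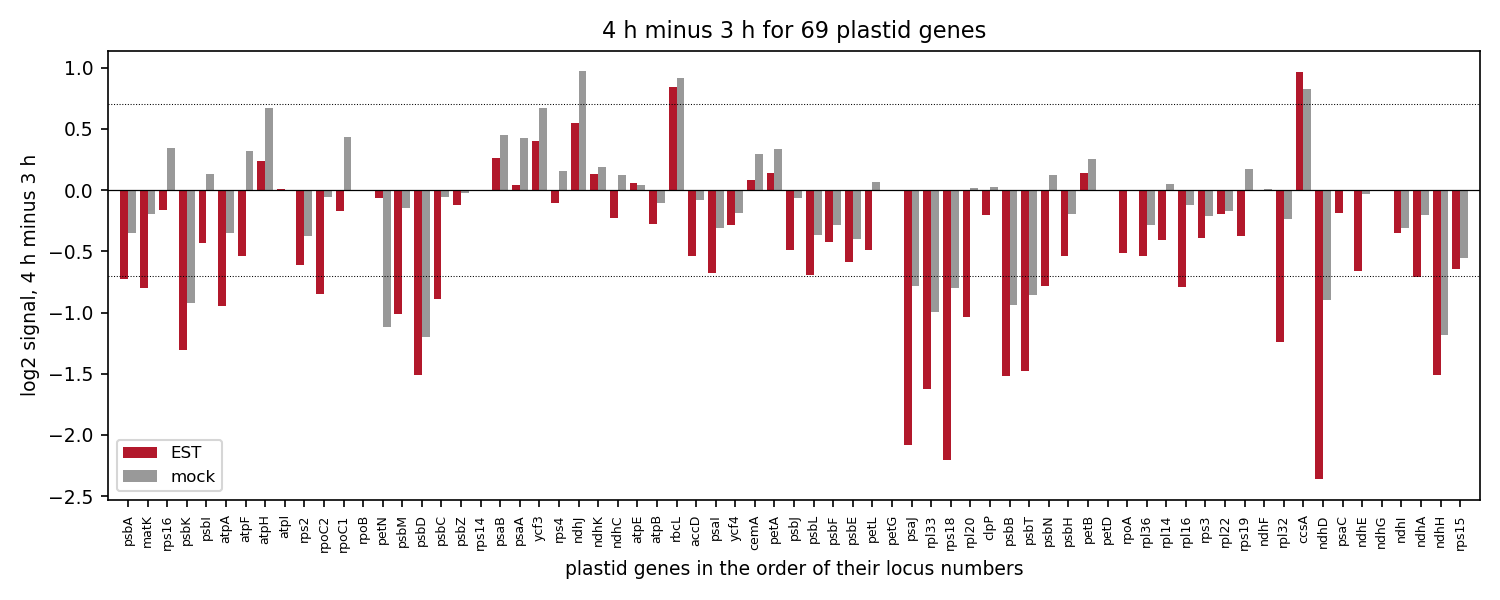
Log2 difference of 4 h minus 3 h for 69 plastid genes in the order of their locus numbers, EST in red beside mock in grey, with dotted lines at 0.7 in either direction. EST bars lie below mock bars for 61 of the 69 genes, and the deepest bars are those of ndhD, rps18 and psaJ in EST.

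Over all 69 plastid genes the median difference was −0.42 in EST and −0.03 in mock, against 0 in both treatments over all genes. Below 0 in both treatments were 36 plastid genes, and above 0 in both were 12, against 1580 and 3060 of all 13355 genes. In EST 20 were at least 0.7 lower and 2 higher, and in mock 10 were lower and 3 higher. Across the 69 genes the 2 differences had a Pearson correlation of 0.81, and across the 46 of mean signal 6 or more it was 0.88, as a description over genes that share 4 arrays and in part their transcripts. The EST difference lay below the mock difference for 61 of 69.

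Over all genes 0.884% were lower in EST and 1.0% in mock. By product, photosystem II genes had 8 of 15 lower in EST and 4 of 15 in mock, with medians of −0.72 in EST and −0.28 in mock. Large ribosomal subunit genes had 4 of 7 lower in EST and 1 of 7 in mock, with medians of −0.79 in EST and −0.17 in mock. ATP synthase genes had 1 of 6 lower in EST and 0 of 6 in mock, with medians of −0.14 in EST and 0.02 in mock. The 10 plastid genes of mean signal 12 or more ranged from −1.01, for psbM, to 0.05 in EST and from −0.31 to 0.18 in mock. Few nuclear genes for photosynthesis were measured. LHCB4.1, LHCB4.2 and RCA were the 3 of 22 on that list with an annotated probe set, and they differed by −0.11, 0.10 and 0.20 in EST and by −0.16, −0.01 and −0.15 in mock.

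Outside the plastid, 10 genes were lower at 4 h in both treatments, and the annotation gives none of them a name beyond the code. AT1G42365, annotated as a pseudogene, had 4.26 in EST and 4.94 in mock at 4 h, against 5.90 in EST and 6.37 in mock at 3 h. Its differences of −1.65 in EST and −1.43 in mock put it first of the 19 by the smaller of the differences. AT5G38870, the other pseudogene, differed by −0.84 in EST and −1.18 in mock. AT3G52740 had 4.72 in EST and 4.77 in mock at 4 h, against 5.55 in EST and 5.69 in mock at 3 h.

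AT3G22060, of a family related to receptor-like kinases, and AT2G17740, of a C1 domain family, are on the study's list of genes affected by EST. AT3G22060 had 9.65 in EST and 8.04 in mock at 4 h, against 10.69 in EST and 9.06 in mock at 3 h, so that EST was 1.61 above mock at 4 h and 1.63 above it at 3 h. AT2G17740 had 5.48 in EST and 3.70 in mock at 4 h, against 6.59 in EST and 4.67 in mock at 3 h, with EST 1.78 above mock at 4 h and 1.92 above it at 3 h. For both genes the 2 differences with time were alike, −1.04 in EST and −1.02 in mock for AT3G22060 and −1.11 in EST and −0.97 in mock for AT2G17740. They are the 2 of the 19 whose 4 h and 3 h arrays overlapped, since EST at 4 h lay above mock at 3 h. Over all genes 991 (7.42%) had both 4 h arrays below both 3 h arrays by any margin. The rule fixes the order within each treatment, so the lack of overlap in the other genes of the 19 is no result.

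The remaining lower genes were AT5G27530, AT3G50250, AT5G19830, AT5G04790 and AT1G60730, with AT1G60730 just inside the threshold at −0.728 in EST and −0.702 in mock. AT5G27530 had 2.57 in EST and 2.60 in mock at 4 h, near the lowest value of the arrays, against 3.50 in EST and 4.36 in mock at 3 h. The probe set of AT3G50250 is of a kind that may match several transcripts. Just outside the threshold were AT1G57590, at −0.695 in EST and −0.798 in mock, and AT5G60030, at −0.651 in EST and −1.32 in mock.

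Among the 43 genes of the study's list that have no annotated probe set of their own here, 3 were also higher in both. Over all 22746 probe sets other than controls it was 53. The list was drawn up from EST minus mock differences on these same arrays, so that the number is no result. Their probe sets were identified by differences equal to those in that list, and they are not among the 13355 genes or the 23. NUDT21, a nudix hydrolase, had 8.46 in EST and 7.12 in mock at 4 h, against 7.31 in EST and 5.26 in mock at 3 h. BAP1, which restrains cell death, had 6.93 in EST and 5.63 in mock at 4 h, against 6.13 in EST and 4.64 in mock at 3 h. AT5G51190 had 7.02 in EST and 4.80 in mock at 4 h, against 5.36 in EST and 3.75 in mock at 3 h. The study's list labels it only by an integrase-type DNA-binding superfamily. Mock at 3 h was the lowest of the 4 arrays and mock at 4 h the next lowest for all 3. The choice of the list and the rule favour that order, so it is no result.

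**Figure D4:**
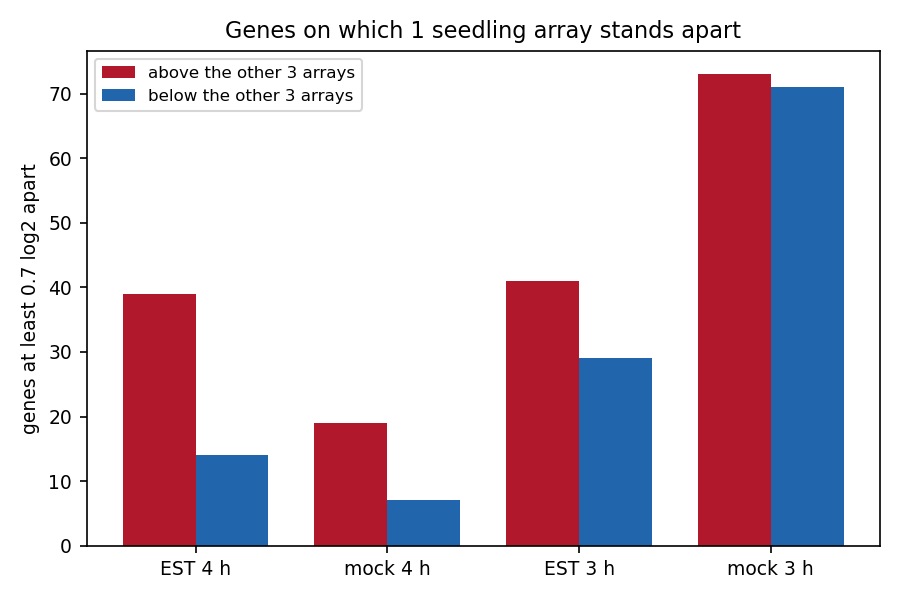
Number of genes, of 13355, on which 1 seedling array lies at least 0.7 log2 above (red) or below (blue) all the other 3 seedling arrays. The mock array of 3 h has the tallest bars, 73 above and 71 below.

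The counts in mock only draw on both mock arrays, and these differed in how often they stood apart. The mock array of 3 h stood apart from the other 3 seedling arrays by at least 0.7 for 144 genes, 73 above and 71 below. EST at 4 h stood apart for 53 genes, mock at 4 h for 26 and EST at 3 h for 70. Correlations between seedling arrays ran from 0.995 to 0.997, lowest for the 2 pairs of the mock array of 3 h with an EST array. Among the 198 genes higher at 4 h in mock only, the mock array of 3 h was the one farthest from the median of the others for 141 and the mock array of 4 h for 57. Among the 110 lower in mock only it was the mock array of 3 h for 98 and that of 4 h for 12. Whether the mock array of 3 h differs by time or as an array was not tested.

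The 198 genes higher at 4 h in mock only had median log2 signals of 5.55 in EST and 5.69 in mock at 4 h, against 5.41 in EST and 4.79 in mock at 3 h. The median difference was 0.13 in EST and 0.85 in mock, and 138 of the 198 had an EST difference under 0.35 in size, as did 11744 of all 13355 genes, a larger share. The mock array of 3 h held the lowest of the 4 signals for 173 genes, and that of 4 h the highest for 118. The mock-only rule makes at least 1 of these hold for each gene, so neither count is a result by itself. Named members include stress-responsive and detoxification genes, cell wall and auxin genes, and developmental regulators.

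GSTU25, a tau class glutathione transferase that conjugates reactive compounds, had the largest mock difference of all 13355 genes. It had 7.75 in EST and 6.50 in mock at 4 h, against 7.41 in EST and 4.04 in mock at 3 h. The difference was 0.34 in EST and 2.46 in mock, 5.51-fold. GSTU25 and GSTU16 were the 2 of 11 tau class genes measured that were higher in mock only, against 1.48% of all genes, in a family chosen after its values were seen. GSTU16 differed by 0.48 in EST and 0.75 in mock. GSTU26, the neighbour of GSTU25 on chromosome 1, was lower in mock, with 4.25 in EST and 4.2 in mock at 4 h, against 4.2 in EST and 5.04 in mock at 3 h. The detoxification list had 6 of 35 genes measured, with GSTU25 as the only one of them that moved in mock.

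STZ (ZAT10), a zinc finger repressor of the salt and cold response, had 10.10 in EST and 8.87 in mock at 4 h, against 9.97 in EST and 7.53 in mock at 3 h. CML38, a calmodulin-like calcium sensor, had 9.02 in EST and 8.28 in mock at 4 h, against 9.09 in EST and 7.34 in mock at 3 h. Both genes had the 2 EST arrays within 0.13 of each other and the 2 mock arrays below them, lowest at 3 h. They were the 2 of 11 measured genes of the rapid stress list that moved in mock only, both higher, against 1.48% of all genes. None of the 11 moved the same way in both. STZ is also on the study's list of genes affected by EST, drawn up from these same arrays, which favours a low mock value. CML23 lay just below the threshold in mock at 0.61, with 0.09 in EST, while WRKY53 differed by 0.05 in EST and 0.37 in mock. Of the 11, 4 were above 0 in both treatments and 2 below 0 in both. The 2 were PUB22, at −0.40 in EST and −0.28 in mock, and PUB24, at −0.25 in EST and −0.26 in mock. The list's median difference was −0.07 in EST and 0.04 in mock, against 0 in both over all genes.

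Of the study's list of affected genes, 91 had a probe set, and 12 of these were lower and 5 higher at 4 h in EST only. Of the 91, 15 met the mock-only rule with a higher value at 4 h, 8 of them among the 198. Of all 13355 genes 1.48% did. That list was drawn up from EST minus mock differences on these same arrays, in which a low mock value at 3 h counts too. None of these numbers is therefore a result. The EST differences of the 15 ran from −0.30 to 0.66, and their mock differences from 0.70 for AR781 to 2.46 for GSTU25. ZAT12, a zinc finger factor of oxidative stress, had 8.24 in EST and 6.55 in mock at 4 h, against 7.86 in EST and 4.69 in mock at 3 h. ACS6, an enzyme that makes the ethylene precursor, had 8.45 in EST and 7.20 in mock at 4 h, against 8.16 in EST and 6.11 in mock at 3 h. SAP12, a stress-associated zinc finger protein, had 6.23 in EST and 5.04 in mock at 4 h, against 6.51 in EST and 3.94 in mock at 3 h. All 15 had mock at 3 h as the lowest array and mock at 4 h as the next. The choice of the list and the rule favour that order, so it is no result either.

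Further members of that list were the NAC factor of senescence ORE1, the peptide hormone precursor PSK4, the hydroxyjasmonate sulfotransferase ST2A and AT3G44260, a ribonuclease H-like protein. ORE1 had 7.09 in EST and 5.85 in mock at 4 h, against 6.42 in EST and 4.85 in mock at 3 h. PSK4 differed by −0.29 in EST and 0.81 in mock, ST2A by −0.04 in EST and 1.04 in mock, and AT3G44260 by 0.37 in EST and 1.09 in mock. Each of them was above its mock 3 h signal on the other 3 arrays. AT2G43590, of a chitinase family, AT3G13650, of a dirigent-like family, AT1G68620, of a hydrolase family, and the uncharacterised AT4G27652 and AT4G27657 differed by 0.78, 1.22, 0.89, 1.01 and 0.98 in mock. ORG1 was the 1 gene of the list that was lower in mock only, with 9.01 in EST and 7.19 in mock at 4 h, against 9.41 in EST and 8.16 in mock at 3 h. ZAT12, ACS6, SAP12, ORE1, PSK4, ST2A, AT3G44260 and ORG1 have no annotated probe set here and were identified in the same way as NUDT21.

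Genes of the cell wall and of auxin conjugation were among those with an EST difference under 0.35 in size. EXPA9, an expansin that loosens cell walls, had 5.34 in EST and 5.73 in mock at 4 h, against 5.41 in EST and 4.69 in mock at 3 h. EXPB3 had 7.33 in EST and 7.55 in mock at 4 h, against 7.39 in EST and 6.75 in mock at 3 h. These 2 were the members of 14 measured expansins that moved in mock only, a family chosen after its values were seen, with 1.48% of all genes higher and 0.824% lower in mock only. GH9B13 and GH9A3, of the glycosyl hydrolase 9 family that holds cellulases, differed by −0.20 and 0.10 in EST and by 1.32 and 0.79 in mock. They were the 2 of 15 measured genes of this family that moved in mock only, a family also chosen after its values were seen. Of the 5 measured genes of the wall growth list, 0 moved in mock only.

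GH3.3, an enzyme that conjugates auxin to amino acids, had 5.67 in EST and 5.95 in mock at 4 h, against 5.80 in EST and 5.06 in mock at 3 h. GH3.17 differed by −0.32 in EST and 0.78 in mock, at signals of 2.30 to 3.08. The auxin list had 6 of 20 genes measured, with GH3.3 the 1 higher and AT2G18010 the 1 lower in mock only. WES1 and HAT2, which are also responsive to auxin, differed by −0.33 and −0.26 in EST and by 0.60 and 0.46 in mock. AT2G18010 was at the lowest value of the arrays, 2.15, on all but the mock array of 3 h, where it had 3.11.

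Some regulators of development were higher in mock only. ATC, a floral repressor related to TERMINAL FLOWER, had 3.79 in EST and 5.13 in mock at 4 h, against 4.43 in EST and 3.44 in mock at 3 h, differences of −0.64 in EST and 1.69 in mock. AGL24, a MADS-box factor that promotes flowering, differed by −0.62 in EST and 1.0 in mock. PHV, a homeodomain factor of leaf polarity, had 7.78 in EST and 8.01 in mock at 4 h, against 7.42 in EST and 7.12 in mock at 3 h. SIM, an inhibitor of cell division in trichomes, differed by 0.59 in EST and 0.81 in mock. THE1, a receptor kinase that monitors the cell wall, had 8.02 in EST and 7.88 in mock at 4 h, against 7.74 in EST and 7.12 in mock at 3 h. These genes were chosen after their values were seen, for their known roles.

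By size of the mock difference, with an EST difference under 0.35, the leading genes after GSTU25 were AT2G47010, AT1G31150, AT3G12710, AT3G21770, STZ, GH9B13, AT4G12700, AT3G61360 and AT5G14730. AT2G47010 had 4.63 in EST and 4.70 in mock at 4 h, against 4.43 in EST and 2.60 in mock at 3 h. AT3G12710 had 6.76 in EST and 6.55 in mock at 4 h, against 6.42 in EST and 5.16 in mock at 3 h. In both the mock array of 3 h was the low one. AT3G61360 differed the other way round, with 4.04 in EST and 5.25 in mock at 4 h, against 4.26 in EST and 4.02 in mock at 3 h, so that mock at 4 h was the high one. AT3G45730 was larger in mock than all of these but GSTU25, at 2.32, with 0.44 in EST. At the threshold, AR781 and AT5G10950 were just inside at 0.701 in mock, and KINESIN-12B and AT1G55760 just outside, at 0.698 and 0.699.

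**Figure D5:**
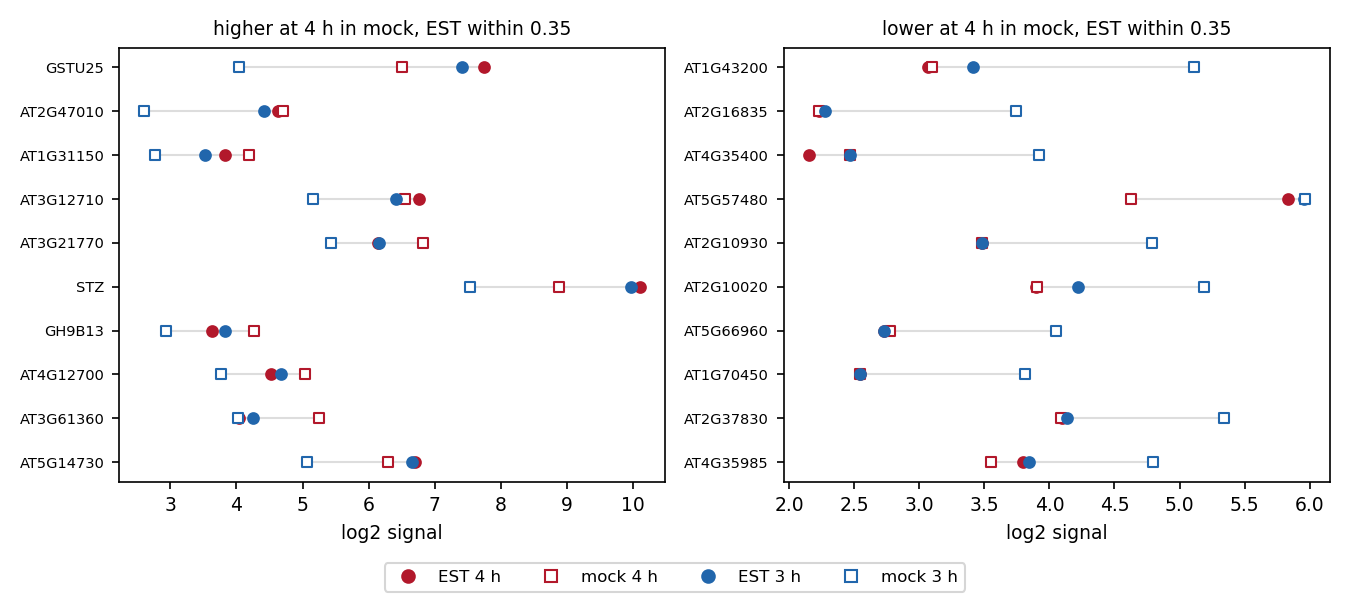
Log2 signal on the 4 seedling arrays of the 10 genes in each direction with the largest mock difference among those with an EST difference under 0.35 (filled circles EST, open squares mock, red 4 h, blue 3 h). In most rows the open blue square, mock at 3 h, lies away from the other 3 symbols; in the rows of AT3G61360 and AT5G57480 it is the open red square, mock at 4 h.

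The 110 genes lower at 4 h in mock only were mostly of low signal, with medians of 3.3 in EST and 3.20 in mock at 4 h, against 3.28 in EST and 4.12 in mock at 3 h. Only 8 of them, 7.27%, had a mean seedling signal of 6 or more, against 75 of the 198 higher in mock only, 37.9%, and 39.1% of all genes. For 50 of the 110, 45.5%, the other 3 arrays lay within 0.1 of each other, as for 47.9% of all genes, and for 41, 37.3%, the lowest seedling signal lay within 0.5 of the lowest value of the arrays, 2.15, as for 41.5% of all genes. Both shares were below those over all genes. The mock array of 3 h held the highest signal for 102 of the 110, and that of 4 h the lowest for 72, an order that the mock-only rule favours. Pseudogenes made up 10 of the 110, 9.09%, 2 of the 198, 1.01%, and 7.47% of all genes.

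AT1G43200, a pseudogene, had the largest difference, with 3.07 in EST and 3.1 in mock at 4 h, against 3.41 in EST and 5.11 in mock at 3 h. AT2G16835, AT4G35400, AT2G10930, AT2G10020, AT5G66960, AT1G70450, AT2G37830 and AT4G35985 followed, with EST differences of −0.32 to 0.00 and mock differences of −1.51 to −1.24. AT5G57480 was unlike these, with 5.84 in EST and 4.63 in mock at 4 h, against 5.96 in EST and 5.96 in mock at 3 h. It was low on the mock array of 4 h alone.

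Named members of this group were SWEET10, SWEET16, petN, GAUT15, HTR12 and GSTU26. SWEET10, a sugar transporter, had 4.76 in EST and 4.82 in mock at 4 h, against 5.39 in EST and 6.02 in mock at 3 h. SWEET16, a vacuolar sugar transporter, had 3.33 in EST and 3.33 in mock at 4 h, against 3.41 in EST and 4.27 in mock at 3 h. petN, a small plastid-encoded subunit of the cytochrome b6f complex, had 4.17 in EST and 4.23 in mock at 4 h, against 4.23 in EST and 5.35 in mock at 3 h, and was the 1 plastid gene lower in mock only. ndhJ was the 1 plastid gene higher in mock only, at 0.55 in EST and 0.97 in mock. HTR12, the centromeric histone, differed by −0.50 in EST and −0.86 in mock, and GAUT15, of a family that makes pectin, by −0.14 in EST and −1.0 in mock. Just inside the threshold in mock were AT1G68185 and AT1G28610, at −0.702 and −0.708, and just outside AT1G20890 and AT4G07680, at −0.693 and −0.696.

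The other pathway lists held few measured genes, and none of their members moved the same way or in mock only. Measured were 6 of 21 heat genes, 5 of 13 wall growth genes, 3 of 29 jasmonate genes, 3 of 15 sugar and darkness genes, 2 of 14 cytokinin genes, 2 of 14 iron genes, 2 of 9 flavonoid genes and 1 of 12 cell cycle genes. No gene of the GRF and GIF, nitrate or salicylate lists was measured. AKINBETA1, a kinase subunit gene of the sugar and darkness list, came closest to moving the same way, with 6.89 in EST and 6.26 in mock at 4 h, against 6.20 in EST and 5.97 in mock at 3 h. Its differences were 0.697 in EST and 0.29 in mock. Of 47 UGT glycosyltransferases, a family grouped by symbol after values were seen, UGT72E1 was the 1 that moved in mock only, with 7.98 in EST and 7.83 in mock at 4 h, against 8.05 in EST and 7.05 in mock at 3 h.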

How the data were processed

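RNA of 4 seedling samples and 2 leaf samples was hybridised to ATH1 arrays, 1 array per condition. The authors deposited log2 signals per probe set, normalised with GCRMA per the submitters' processing notes, whose version was not given in the sources used here. Raw scanner data were not used here, and their probe-level background cannot be revisited. GCRMA compresses weak signals toward a lowest value, 2.15 here. Of 22746 probe sets other than controls, 13513 were annotated to a single gene, 503 to several and 8730 were not listed. Of the 13513, 13436 matched RefSeq TAIR10.1, from which symbols were taken. Each gene was represented by its probe set of highest mean signal over the 6 arrays, giving 13355 genes. Differences were taken per gene with Python 3.11.15, pandas 2.3.3 and numpy 2.4.6, and figures were drawn with matplotlib 3.10.9. Time was fitted with limma 3.58.1 in R 4.3.3 (terms for treatment and time, Benjamini-Hochberg adjustment), and tested on simulated data first. Genes are named where they moved the same way, lead the mock-only order with an EST difference under 0.35, lie next to a threshold, or belong to a named gene family or pathway list. The members and the lists were chosen with earlier results of these data known. By the paper GRF9 is not represented on the ATH1 array, and it has no annotated probe set here, so the induction was not checked. Wild-type seedlings given EST were not analysed here. Probe sets of genes without annotation were matched to the study's gene list by EST minus mock differences within 0.0002. Samples were grouped by their labels. Quantile normalization, median centring, a signal filter, other thresholds, other limma settings and the omission of each array were tried. The precision is limited by the single array per condition.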

Additional observations from a re-analysis of the deposited data

Results flagged for a closer look

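For 13 genes the 4 h minus 3 h difference passed 0.7 in EST and in mock with opposite signs, and the difference between treatments was not tested. Of all genes 0.0599% were lower in EST and higher in mock, and 0.0374% were higher in EST and lower in mock.

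The 8 genes lower in EST and higher in mock include SWEET13, a sugar transporter, with signals of 4.97 in EST and 5.96 in mock at 4 h, against 6.23 in EST and 4.56 in mock at 3 h. Its differences were −1.27 in EST and 1.40 in mock. AT4G01390 differed by −1.15 in EST and 2.13 in mock, and AT1G55200 by −0.86 in EST and 1.73 in mock. For these 3 genes the mock array of 3 h was the lowest of the 4. AT4G33560 differed by −1.73 in EST and 1.11 in mock, and AT2G38240 by −2.27 in EST and 1.01 in mock. AT5G59330 differed by −1.02 in EST and 0.99 in mock, AT5G11930 by −0.92 in EST and 0.86 in mock, and AT2G46630 by −0.80 in EST and 0.84 in mock.

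The 5 genes higher in EST and lower in mock include LTI30, a cold-induced dehydrin, with 6.17 in EST and 4.59 in mock at 4 h, against 5.13 in EST and 5.32 in mock at 3 h. Its differences were 1.04 in EST and −0.73 in mock. AT3G19550 differed by 0.88 in EST and −1.21 in mock, and AT1G64360 by 1.05 in EST and −1.09 in mock. AT4G15680 differed by 1.01 in EST and −0.97 in mock, and AT5G07630 by 1.19 in EST and −0.95 in mock. The mock array of 3 h was the highest of the 4 for AT3G19550, AT4G15680 and AT5G07630.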

How the results depend on the processing

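Of the 23 genes higher in both, 10 remained after quantile normalization, 8 after median centring, 12 at a mean signal of 6 or more and 1 at a threshold of 1; the count was 88 at a threshold of 0.5 and 53 over all probe sets. The 19 genes lower in both were kept under both scalings, which for centring follows from its lowering every difference alike; 9 had a mean signal of 6 or more, 4 passed a threshold of 1, and 40 genes passed 0.5. The 198 genes higher in mock only became 111 after centring, 75 at a mean signal of 6 or more, 51 at a threshold of 1, 453 at 0.5 and 376 over all probe sets. The 110 lower in mock only became 189 after centring, 8 at a mean signal of 6 or more, 34 at a threshold of 1, 241 at 0.5 and 196 over all probe sets. Without an array, both differences use the single array left at that time, so the counts are not comparable with the 23 and 19. The count higher in both was then 54 without EST at 4 h, 83 without mock at 4 h, 126 without EST at 3 h and 64 without mock at 3 h, and that lower in both 27, 34, 101 and 59 in the same order, an alternative added after seeing the data. Mock-only counts cannot be formed without an array. No replicate numbers pair these single arrays, and treatment served as the block in limma. Without that block limma called 5 genes, with trended and robust variances 5, and without an array 0 to 583, namely 108 without mock at 3 h and 583 without EST at 3 h. The cause was not tested. Of 418 differences (mock for the mock-only genes, EST and mock for those moving the same or opposite ways), 0 were reversed under either scaling. Each was at least 0.7 in size by the rule. Centring moved them by only 0.13 in mock and 0.07 in EST, so it could not reverse any. Signals near 2.15 bound what can be read as lower.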

Other observations

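Genes past 0.7 in EST alone numbered 156 higher and 91 lower at 4 h. COR47, a dehydrin, and the heat-responsive AT5G48570 were among those higher, at 0.88 and 0.76 in EST and 0.38 and 0.09 in mock. XTH18, a cell wall xyloglucan enzyme, had 9.00 in EST and 8.84 in mock at 4 h, against 9.91 in EST and 8.88 in mock at 3 h. WRKY22, a defence transcription factor, had 5.08 in EST and 4.64 in mock at 4 h, against 6.18 in EST and 4.63 in mock at 3 h. For XTH18 and WRKY22 the EST array of 3 h was the high one of the 4. THI2.1, a thionin, differed by −1.30 in EST and 0.52 in mock, and AT2G04070, of the detoxification list, by −0.95 in EST and 0.47 in mock.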
